A study of Bos taurus and Bubalus bubalis with 9 samples.

Results

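The circular RNAs (circRNAs) described here came from solute carrier genes, the genes whose symbol is SLC followed by a family number. Rows of the buffalo and the cattle circRNA tables were taken by this host symbol, without regard to their level. These were 115 of 10701 rows and 60 of 3440 host symbols in buffalo, and 223 of 18535 rows and 85 of 4757 host symbols in cattle. The buffalo table also covers buffalo adipose tissue, whose columns were not analysed here, so that its rows and hosts need not have a read in buffalo muscle. In all, 101 solute carrier host labels were found, of which 44 were in both tables, 16 in the buffalo table only and 41 in the cattle table only. Among the labels taken, 1 in each table pairs a solute carrier with an overlapping gene, SLC6A20,LZTFL1 in buffalo and SLC26A7,LRRC69 in cattle, and these labels were kept as they stand. With the first symbol taken from each pair, there were 100 different symbols, and 100 were found among the RefSeq gene names. They are 27.5% of the 363 solute carrier symbols considered there, while 23.1% of all protein-coding symbols there were hosts.

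RNA sequencing libraries were used from the longissimus muscle of Xinyang buffalo, whose intramuscular fat (IMF) is low by the labels, and from the longissimus muscle and the back subcutaneous fat of Nanyang cattle, whose IMF is high. Each of the 3 groups had 3 libraries. All animals were weaned at 3 months, castrated at 6 months, fattened from 18 months and slaughtered at 30 months of age, on similar feed but on different farms, so that species, farm and breed cannot be told apart. Both cattle tissues came from the same 3 cattle, and which number stands for which animal is not given in the labels.

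Solute carriers are membrane proteins that move ions, sugars, amino acids, nucleotides, metals and other small molecules across the cell surface or the membranes of mitochondria, Golgi and lysosomes. A circRNA forms when the splicing machinery joins the end of an exon to the start of the same or an upstream exon of the same transcript, and it is recognised in sequencing by reads that cross this back-splice junction. Skeletal muscle uses ion exchangers and cotransporters to clear protons, calcium and chloride during work, and both muscle and fat take up glucose, lactate and amino acids through solute carriers.

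The deposited circRNA values are RPM, the reads of each back-splice junction scaled to the size of the library, and in each library they were whole multiples of the value of 1 read. A single read was worth 0.0152 to 0.0167 RPM in buffalo muscle, whereas in cattle it was worth 0.0237 to 0.0280 RPM (muscle) and 0.0257 to 0.0271 RPM (adipose tissue). The libraries held 4472 to 6122 junction reads in buffalo muscle, and in cattle 15440 to 27141 in muscle and 12042 to 21053 in adipose tissue. As a check of the labelled tissues, hosts that mark muscle fibres held 14.1% to 16.2% of the junction reads in buffalo muscle, 5.08% to 5.88% in cattle muscle, and at most 1 read per library in cattle adipose tissue. Adipocyte marker hosts held 0.252% to 0.332% in cattle adipose tissue and at most 0.0184% in any muscle library. Of 12 fibre genes listed, 6 had reads in buffalo muscle and 7 in cattle muscle. Of 11 adipocyte genes, 5 had reads in cattle adipose tissue. Endothelial marker hosts had 8 to 13 reads per library in cattle muscle and 1 to 12 in adipose tissue. Leukocyte hosts had 0 to 3 and 0 to 2, and fibroblast hosts 0 to 3 and 4 to 8.

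Solute carrier hosts gave about 1 in every 100 junction reads of cattle and fewer in buffalo. In buffalo muscle they gave 28 of 5296, 27 of 6122 and 29 of 4472 junction reads in libraries 1 to 3, which is 0.529%, 0.441% and 0.648%. In cattle muscle they gave 136 of 15440, 269 of 27141 and 258 of 21901 reads, which is 0.881%, 0.991% and 1.18%. In cattle adipose tissue they gave 132 of 12042, 231 of 21053 and 159 of 14160 reads, which is 1.10%, 1.10% and 1.12%. The means were 0.539% ± 0.104 (SD, n = 3), 1.02% ± 0.150 (SD, n = 3) and 1.11% ± 0.0151 (SD, n = 3). The ranges of the cattle tissues overlapped, and every buffalo library lay below every cattle library. The exact Clopper-Pearson 95% intervals of the buffalo libraries ran from 0.291% to 0.930% in all, and those of the cattle muscle libraries from 0.740% to 1.33%, so that the intervals of the highest buffalo and the lowest cattle library overlapped. These intervals cover counting error only. The species are in separately made tables, and buffalo reads were aligned to the cattle genome, so that no test was made between species.

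**Figure D1:**
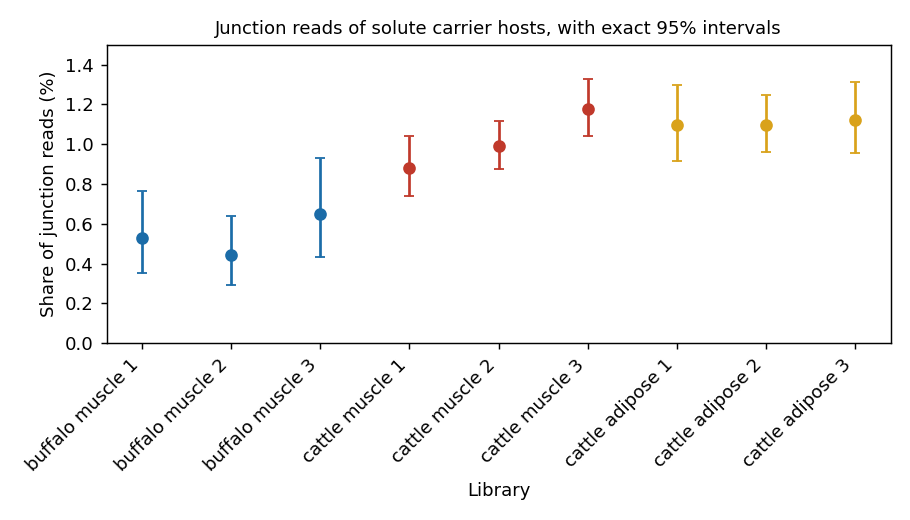
Share of junction reads from solute carrier hosts (y axis, percent) in each of the 9 libraries (x axis), with exact 95% intervals for counting error. The buffalo muscle libraries lie between 0.441% and 0.648%, and the cattle libraries of both tissues between 0.881% and 1.18%.

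In units of RPM the difference between the species was wider, with a summed solute carrier level of 0.444 ± 0.0337 RPM (SD, n = 3) in buffalo muscle, and in cattle 5.73 ± 1.89 RPM in muscle and 4.63 ± 1.39 RPM in adipose tissue. All junctions together summed to 74.5 to 96.1 RPM in the buffalo muscle libraries, 408.5 to 642.2 RPM in those of cattle muscle and 326.9 to 566.0 RPM in those of cattle adipose tissue. The RPM of single junctions in buffalo are therefore low for solute carriers and for circRNAs as a whole, and shares of junction reads are given beside them below.

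A read was found for 47 solute carrier junctions of 39 hosts in buffalo muscle. In cattle, muscle had 148 junctions of 63 hosts and adipose tissue 132 junctions of 60 hosts. The remaining 68 of the 115 buffalo rows had no read in buffalo muscle. Of the detected junctions, 25 in buffalo muscle and, in cattle, 74 in muscle and 50 in adipose tissue rested on a single read in the group. In buffalo muscle, 1 of the 47 was found in all 3 libraries, which is 2.13%, against 8.32% of all detected junctions. In cattle muscle 21 of the 148 were found in all 3 libraries, 14.2% against 12.2% of all, and in cattle adipose tissue 15 of the 132, 11.4% against 10.1% of all. Most members are thus seen in some animals and missed in others at this depth. The cattle tissues had 57 junctions in common, which is 38.5% of the muscle list and 43.2% of the adipose list. They had 38 hosts in common, 60.3% of those in muscle and 63.3% of those in adipose tissue. The overlap over all junctions and all hosts is not given here, so that nothing particular to solute carriers is read from these shares.

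Grouped by family and what the family is known to carry, the carriers of protons, bicarbonate, chloride, phosphate and sulphate were the main source of solute carrier junction reads in cattle muscle, with 196 of 663 reads or 29.6%, against 20.3% in cattle adipose tissue. The carriers of metal ions and calcium gave 23.1% of these reads in cattle muscle and 20.7% in adipose tissue, and the SLC25 family, most of whose members are mitochondrial carriers, 15.5% and 14.0%. Carriers of amino acids gave 46 reads or 6.94% in cattle muscle and 94 reads or 18.0% in adipose tissue. A single host, SLC38A6, held 20 of the 46 and 72 of the 94 reads, and without it the group had 26 of 643 reads or 4.04% in muscle and 22 of 450 or 4.89% in adipose tissue. Families were taken whole, so that a group can hold members that carry something else. Families of sugar and nucleotide sugar carriers gave 10.1% in cattle muscle and 10.7% in adipose tissue. In buffalo muscle this last group had 26 of 84 reads or 31.0%, of which 3 were of SLC35B3, a transporter of PAPS. The proton, bicarbonate, chloride, phosphate and sulphate carriers had 19 reads or 22.6%. This order turned without SLC2A12, which held 10 of the 26 reads, with 16 of 74 reads or 21.6% against 19 of 74 or 25.7%.

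The levels of the 2 cattle tissues were set against each other by limma on the log2(RPM + 0.1) scale, with Benjamini-Hochberg adjustment over all features tested and a threshold of 0.05 on the adjusted p. A junction or host was tested when at least 3 of the 6 cattle libraries had at least 2 reads. When the junctions of each host were summed, 29 of the 85 solute carrier hosts were tested, with 87.8% of the solute carrier junction reads of cattle. Of these, 5 were higher in muscle (SLC9A2, SLC12A2, SLC20A2, SLC8A3 and SLC25A13) and 1 was higher in adipose tissue (SLC38A6). Of all 1837 hosts tested, 5.82% were called higher in muscle and 1.8% higher in adipose tissue, 7.62% in all. With all libraries centred on their median, the split among solute carriers was 3 to 2 in place of 5 to 1, and the split over all hosts 106 to 59 in place of 107 to 33. SLC4A4 then joined in the adipose direction, and SLC8A3 and SLC25A13 were no longer called. Without cattle muscle 1, 2 or 3, the number of solute carrier hosts called was 2, 3 and 1, and without cattle adipose 1, 2 or 3 it was 1, 3 and 1. Of the hosts tested, 5 passed the read minimum through muscle libraries alone and 0 through adipose libraries alone, so that a host of this kind could be tested only because its muscle reads were high, and the direction of its difference was fixed by the filter. These were SLC9A2, SLC20A2, SLC8A3, SLC25A13 and SLC25A17, which means that 4 of the 5 calls in the muscle direction are of this kind. Over all hosts, 88 of the 1837 passed through muscle libraries alone. With no filter, SLC9A2 and SLC12A2 were the solute carrier hosts called, and SLC20A2, SLC8A3 and SLC25A13 were not.

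**Figure D2:**
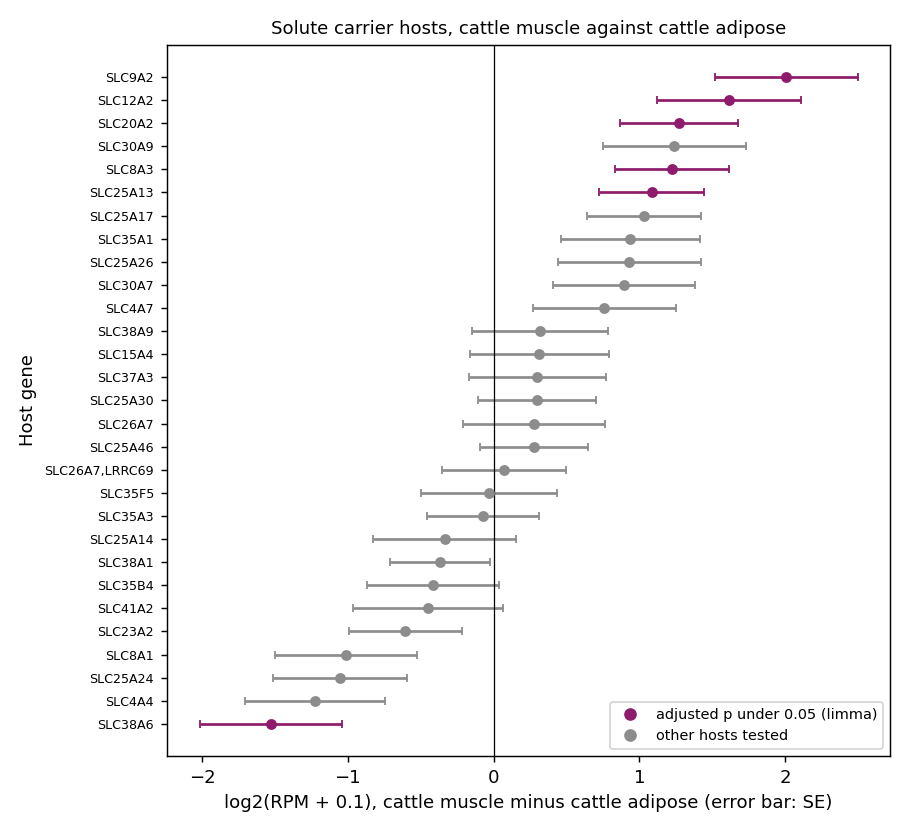
Difference in circRNA level between cattle muscle and cattle adipose tissue (x axis, log2(RPM + 0.1), muscle minus adipose, with SE) for the 29 solute carrier hosts tested (y axis). The 5 coloured points on the right and the 1 on the left pass the threshold in limma, from 2.01 for SLC9A2 to -1.53 for SLC38A6.

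The sodium/proton exchanger SLC9A2, which exports protons at the cell surface, had reads in all muscle libraries and in no adipose library of cattle. Its summed junctions had 7, 7 and 27 reads in cattle muscle 1 to 3 (0.185, 0.166 and 0.756 RPM) and 0, 0 and 0 in cattle adipose tissue. All muscle libraries were thus above all adipose libraries, although muscle 3 was far above the other two. The difference was 2.01 on the log2 scale (SE 0.49, limma adjusted p = 0.00320). With 0 adipose reads the fold is a lower bound, and against a floor of 3 reads over the adipose group SLC9A2 was at least 13.3-fold higher in muscle. This bound rests mostly on the 27 reads of muscle 3 and would be lower without them. Since the filter fixed the direction of SLC9A2 in every fit that used it, the fit with no filter bears on it, where the limma adjusted p over all 4757 hosts was 0.00138. The adjusted p was 1.78e-05 to 0.0457 over the 15 alternatives, as a description. Nearly all of this signal, 39 of 41 reads, lay on a single short junction at chr11:7353322-7353785 (UMD3.1), which spans 464 bases and is annotated as exonic. This junction had 7, 7 and 25 reads in muscle. Its own difference was 1.97 (SE 0.47, limma adjusted p = 0.0163), and it was past the threshold in 10 of 15 alternatives, with an adjusted p of 0.000111 to 0.132. It was not called without cattle muscle 2 or 3 or without cattle adipose 1 or 3.

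SLC12A2, the sodium-potassium-chloride cotransporter that loads cells with chloride, had 19, 10 and 24 reads in cattle muscle and 4, 6 and 0 reads in cattle adipose tissue when its 10 junctions were summed. The groups did not overlap in RPM, with 0.237 to 0.672 in muscle and 0 to 0.161 in adipose tissue. The difference was 1.61 (SE 0.49, limma adjusted p = 0.0267), and the ratio of the pooled RPM was 5.17 (95% counting interval 2.60 to 11.4). It was past the threshold in 10 of 15 alternatives, with an adjusted p of 0.00692 to 0.265, and was not called without cattle muscle 1 or 3 or cattle adipose 1 or 3, nor with a pseudocount of 0.02. The junction at chr7:27016818-27019162 carried 71.7% of the SLC12A2 reads in muscle, with 14, 4 and 20 reads, and 2 of the 10 reads in adipose tissue, both in adipose 2. By itself this junction differed by 1.77 (SE 0.48, limma adjusted p = 0.0389), with a ratio of 18.5 and a wide counting interval of 4.79 to 158.5. It was past the threshold in 7 of 14 alternatives, with an adjusted p of 0.00200 to 0.204. It was not called with no filter, with a pseudocount of 1, without any 1 of the muscle libraries, or without cattle adipose 1 or 3. Of the libraries that let it pass the filter, 3 were muscle and 1 was adipose. In adipose tissue the leading SLC12A2 junction was another, chr7:27016818-27024844, with 4 reads in adipose 1 and none in muscle. Both junctions start at the same position.

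The other hosts called higher in muscle had no read in cattle adipose tissue and were tested through their muscle reads alone, so that their adjusted p-values are given as a description and not as support for a direction. SLC20A2, a sodium-coupled phosphate transporter, had 4, 2 and 13 reads in muscle, of which 17 were on the junction chr27:36979147-36992767. Its summed difference was 1.27 (SE 0.41, limma adjusted p = 0.0344), at least 6.17-fold against the floor. Muscle 3 held most of the reads, and this bound would be lower without it. SLC8A3, a sodium/calcium exchanger of the plasma membrane, had 4, 10 and 3 reads in muscle. All lay on its only cattle junction, chr10:82271444-82273289, which is annotated as exon and intron. The summed difference was 1.22 (SE 0.39, limma adjusted p = 0.0341), which was 5.52-fold against the floor with a lower counting limit of 4.02. SLC25A13, the mitochondrial aspartate/glutamate carrier citrin, was even across the animals, with 4, 5 and 4 reads on 4 junctions and a level of 0.112 ± 0.00624 RPM (SD, n = 3). Its difference was 1.08 (SE 0.36, limma adjusted p = 0.0450), which was 4.22-fold against the floor with a lower counting limit of 2.97. Among single junctions, the one of SLC8A3 and the leading ones of SLC20A2 and SLC25A13 were not called (limma adjusted p = 0.0671, 0.0766 and 0.0769). SLC20A2 was not called without cattle muscle 1 or 3 and without any of the adipose libraries, SLC8A3 without cattle muscle 2 or 3 or any adipose library, and SLC25A13 without any 1 of the 6 libraries. Over all alternatives that gave an adjusted p, SLC20A2 was past the threshold in 6 of 14 (0.00921 to 0.185), SLC8A3 in 6 of 14 (0.0178 to 0.169) and SLC25A13 in 3 of 13 (0.0379 to 0.279).

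**Figure D3:**
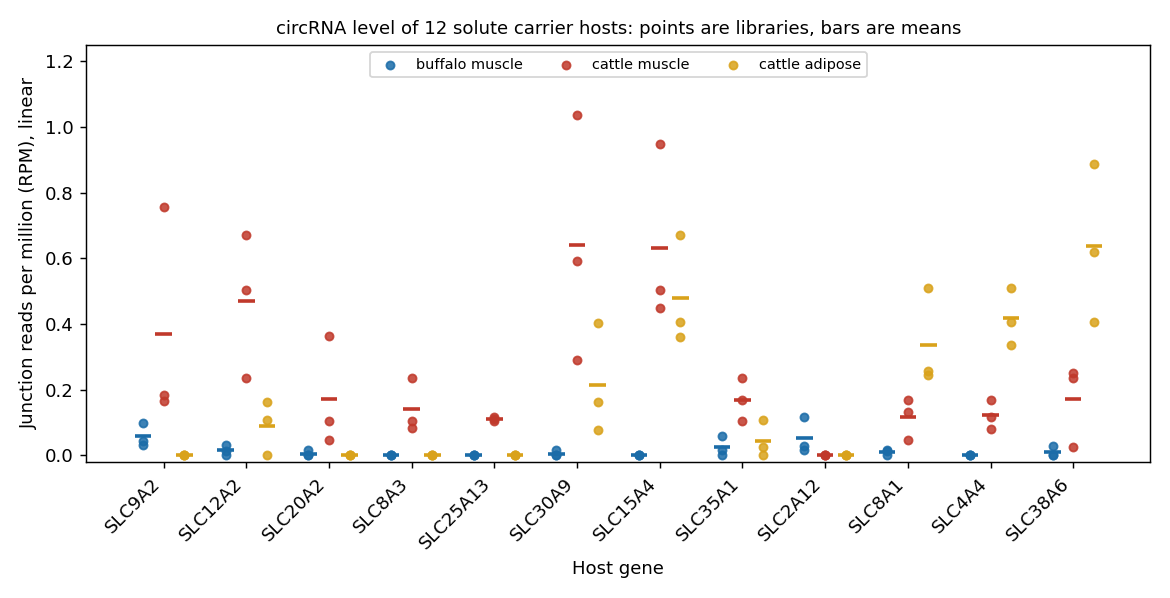
Junction RPM (y axis, linear) of 12 solute carrier hosts (x axis), summed over their junctions. Points are the 3 libraries of a group, bars are means, and colours mark the species and tissue; SLC9A2 lies at 0 in every adipose library, and SLC38A6 is above 0.4 RPM in every adipose library and below 0.26 RPM in every muscle library.

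SLC38A6, a member of the family of sodium-coupled neutral amino acid transporters, showed the opposite order. It had 1, 10 and 9 reads in cattle muscle 1 to 3 and 15, 33 and 24 reads in cattle adipose tissue 1 to 3. The groups did not overlap, with 0.0265 to 0.252 RPM in muscle and 0.407 to 0.887 RPM in adipose tissue. The difference was -1.53 (SE 0.49, limma adjusted p = 0.0344), and the pooled level in muscle was 0.271 of that in adipose tissue (95% counting interval 0.156 to 0.450). It was the solute carrier host with the most adipose reads, 72 of 522. It was past the threshold in 5 of 15 alternatives, with an adjusted p of 0.00279 to 0.272, and was not called when any 1 of the 6 libraries was left out. The reads were spread over 10 junctions, 9 of them with a read in adipose tissue and 4 in muscle. The leading junction was the same in both tissues, chr10:73439158-73449903, with 0, 4 and 5 reads in muscle and 4, 11 and 10 in adipose tissue. The next, chr10:73428984-73449903, had 1, 4 and 1 reads in muscle and 4, 7 and 10 in adipose tissue. Neither was called by itself, with differences of -0.89 (SE 0.47, limma adjusted p = 0.314) and -0.92 (SE 0.43, limma adjusted p = 0.237).

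A further 4 hosts had every muscle library below every adipose library without passing the threshold, which makes 5 of the 29, or 17.2%, with SLC38A6. Among all hosts tested 8.27% had this order. SLC4A4, a sodium-bicarbonate cotransporter, had 3, 5 and 6 reads in muscle and 15, 19 and 13 in adipose tissue, a difference of -1.23 (SE 0.48, limma adjusted p = 0.114). SLC8A1, the sodium/calcium exchanger best known from heart muscle, had 5, 2 and 6 reads in muscle and 9, 19 and 10 in adipose tissue, a difference of -1.01 (SE 0.49, limma adjusted p = 0.252). SLC25A24, a mitochondrial carrier of ATP-magnesium and phosphate, had 0, 1 and 2 reads in muscle and 3, 7 and 9 in adipose tissue, a difference of -1.06 (SE 0.46, limma adjusted p = 0.178). The last was SLC23A2, a vitamin C transporter, with 2, 1 and 0 reads in muscle and 2, 2 and 7 in adipose tissue. Muscle 1 and the first and second adipose libraries had the same 2 reads, and their order in RPM, 0.0529 against 0.0543 and 0.0538, rests on library scaling alone. In the other direction 7 of the 29 hosts, or 24.1%, had every muscle library above every adipose library, against 12.5% of all hosts. The filter fixed this order for 5 of the 7, those tested through their muscle reads alone, so that the share is not comparable with the background and nothing is read from it. The 7 were the 5 called hosts, the peroxisomal carrier SLC25A17 with 5, 4 and 5 reads in muscle and 1, 0 and 0 in adipose tissue (1.03, SE 0.39, limma adjusted p = 0.105), and the Golgi zinc transporter SLC30A7 with 7, 15 and 11 reads against 6, 4 and 2 (0.89, SE 0.49, limma adjusted p = 0.337). These tissues differ in the muscle fibre and adipocyte marker hosts given above. In bulk tissue fewer cells of a type cannot be told apart from less RNA per cell. The part of cell make-up in these differences was not tested. Over the 29 hosts the median difference was 0.30, beside 0.02 over all hosts tested, and without those tested through muscle reads alone it was 0.18 over 24, beside -0.02 over all hosts.

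By group, and beside the 5.82% of all hosts called higher in muscle and 1.8% in adipose tissue, the proton, bicarbonate, chloride, phosphate and sulphate carriers had 3 of 7 tested hosts higher in muscle and none higher in adipose tissue, with a median difference of 0.76, but 2 of the 3, SLC9A2 and SLC20A2, were tested through their muscle reads alone. So was the 1 call of each of the next groups, SLC25A13 and SLC8A3. Without hosts of this kind the medians of the 3 groups were 0.28, 0.28 and 0.22. Of the 7 hosts of the SLC25 family, most of whose members are mitochondrial, 1 was higher in muscle, with a median of 0.30. Of the 5 metal ion and calcium carriers 1 was higher in muscle, with a median of 0.89 and a range from -1.01 to 1.24. Of the 3 amino acid carriers 1 was higher in adipose tissue, with a median of -0.37. Of the 5 sugar and nucleotide sugar carriers none passed the test, and their median was -0.03.

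At the level of single junctions 30 of the 223 were tested, and the 2 of SLC9A2 and SLC12A2 described above were called, both higher in muscle. Of all 1917 junctions tested, 4.49% were called higher in muscle and 0.313% higher in adipose tissue, 4.8% in all. None of the 30 was called higher in adipose tissue by limma, nor by edgeR or DESeq2, and 9 of the 30 had an unadjusted p under 0.05 in limma in either direction, beside 383 of all 1917 junctions, and 4 of the 9 had passed the filter through muscle libraries alone. Centring moved the median difference of all junctions from 0.07 to -0.06, and the split over all junctions from 86 higher and 6 lower in muscle to 111 and 47. The 2 solute carrier calls were the same junctions after centring. Such calls numbered 0 with a pseudocount of 1 and without cattle muscle 2 or 3 or cattle adipose 1 or 3. They numbered 4 with a pseudocount of 0.02, the replicate block, edgeR or DESeq2. The median over the 30 was 0.11, beside 0.07 over all junctions tested. Without the junctions that had passed the filter through muscle libraries alone, it was -0.09 over 26, of which 12 were higher in muscle and 14 in adipose tissue, beside -0.01 over all junctions. Every muscle library was above every adipose library for 8 of the 30 junctions, against 15.3% of all junctions tested, and below for 1, against 7.93% of all. Of the 8, 4 had passed the filter through muscle libraries alone, those of SLC9A2, SLC8A3, SLC20A2 and SLC25A13, and nothing is read from this count. The SLC9A2 junction, called above, was also called with no filter.

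Several of the most abundant solute carrier circRNAs of cattle were not called between the tissues. SLC15A4, a lysosomal transporter of histidine and small peptides, had 19, 40 and 16 reads in muscle and 15, 25 and 14 in adipose tissue, which is 0.632 ± 0.273 and 0.480 ± 0.168 RPM (SD, n = 3). The ranges overlapped, and the difference was 0.31 (SE 0.48, limma adjusted p = 0.790). It used 2 junctions with a common start, chr17:49345188-49350234 and chr17:49345188-49351083. The first had 14, 16 and 13 reads in muscle and 7, 11 and 12 in adipose tissue. The second was uneven among the animals in both tissues, with 5, 24 and 3 reads in muscle and 8, 14 and 2 in adipose tissue. SLC30A9, a protein of the zinc transporter family found in mitochondria, had 11, 25 and 37 reads in muscle and 6, 15 and 3 in adipose tissue, a difference of 1.24 (SE 0.49, limma adjusted p = 0.122) with overlapping groups. SLC30A9 was called higher in muscle in 2 of 15 alternatives, without cattle adipose 2 and with edgeR and TMM factors. Its leading junction, chr6:62541167-62554342, had 4, 19 and 22 reads in muscle and 4, 13 and 1 in adipose tissue. SLC25A26, the mitochondrial carrier of S-adenosylmethionine, had 31 of its 35 muscle reads on chr22:35298001-35299435, with 4, 12 and 15 reads in muscle and 2, 4 and 2 in adipose tissue. SLC41A2, a magnesium transporter, was seen mainly in the libraries numbered 2, with 0, 11 and 1 reads in muscle and 0, 21 and 3 in adipose tissue.

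The leading junction was compared between the tissues as a description, with no test of a change. Among the 13 hosts with at least 10 reads in each cattle tissue, 9 had the same leading junction in both and 4 had another (SLC12A2, SLC26A7, SLC35F5 and SLC4A4). SLC4A4 had the most junctions of all solute carriers in cattle, 18, of which 5 had a read in muscle and 16 in adipose tissue. In muscle its leading junction was chr6:88483337-88493519 with 1, 3 and 2 reads, which also had 2, 5 and 0 reads in adipose tissue. In adipose tissue it was chr6:88483337-88518555 with 3, 2 and 6 reads, which had 2, 1 and 2 reads in muscle. These counts, like those of SLC26A7 with 15 and 10 reads and SLC35F5 with 10 and 10, are too low to show a shift between the junctions. SLC26A7, an anion exchanger, followed with 13 junctions, 10 of them with a read in muscle and 5 in adipose tissue, and SLC12A2 with 10, of which 8 and 4 had a read. SLC38A6 also had 10, of which 4 had a read in muscle and 9 in adipose tissue. SLC30A9, SLC4A7 and SLC38A9 had 9 each. SLC4A7 is a sodium-bicarbonate cotransporter, and SLC38A9 is the lysosomal arginine sensor of the mTORC1 pathway. In the buffalo table the organic cation transporter SLC22A3 had the most, 6, with 1 read in muscle in all, and SLC9A2 had 5, each with a read in muscle.

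**Figure D4:**
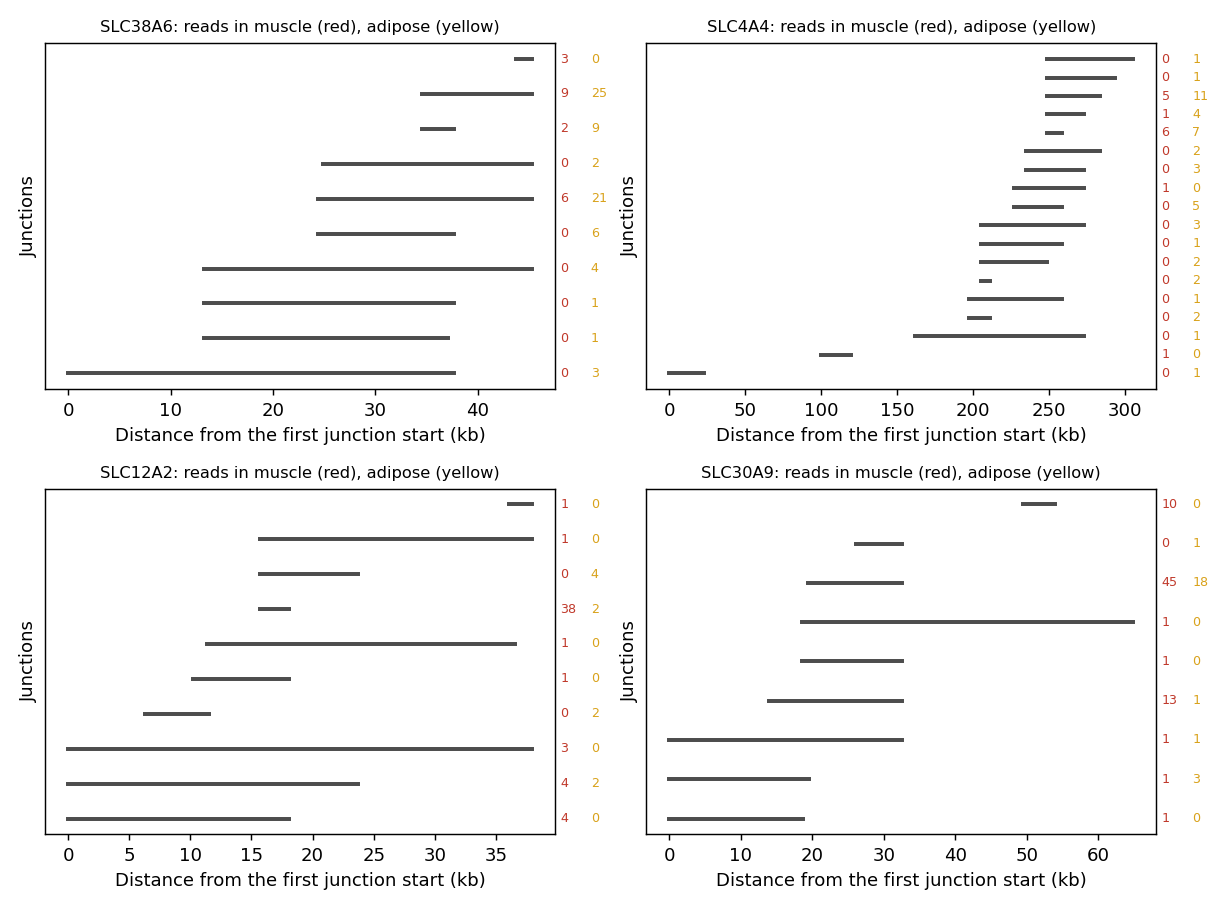
Back-splice junctions of 4 cattle hosts, drawn as bars from start to end (x axis, kb from the first junction start of that host, 1 row per junction), with the reads summed over 3 cattle muscle (red) and 3 cattle adipose (yellow) libraries. SLC12A2 has 38 muscle reads on 1 short junction, whereas the 72 adipose reads of SLC38A6 are spread over 9 junctions that mostly share their ends.

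Junctions of a host often shared a start or an end. Among solute carrier hosts with several junctions this held for 149 of 179 junctions in cattle, or 83.2%, against 75.9% of all such junctions, and for 66 of 87 in buffalo, or 75.9%, against 73.2%. On average a solute carrier host had 2.62 junctions in cattle, against 3.64 over all hosts, and 1.92 in buffalo, against 2.93. Of the 223 cattle junctions, 195 were annotated as exonic, 24 as exon and intron and 4 as intronic. The 115 buffalo junctions were 109 exonic and 6 exon and intron. The median span was 14640 bases in cattle, where all junctions with a host had 10310, and 8684 bases in buffalo, where all had 11883. Among reads of solute carriers, 9.50% in cattle muscle but 1.34% in cattle adipose tissue were on junctions shorter than 1000 bases, where all hosts had 7.63% and 8.22%. In cattle muscle these reads were chiefly the 39 of SLC9A2 and the 20 of SLC35A1, the Golgi transporter of CMP-sialic acid, whose only junction, chr9:63313833-63314321, spans 489 bases and had 4, 10 and 6 reads in muscle and 4, 1 and 0 in adipose tissue.

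In buffalo muscle the solute carrier junctions rested on few reads, and their order is uncertain. The host with the most reads was SLC9A2, with 3, 2 and 6 reads over 5 junctions. Of these 11 reads, 2 were on the 464-base junction that dominated in cattle muscle (1, 0 and 1), and the others were on chr11:7381797-7393194 with 0, 0 and 3, chr11:7381797-7381999 with 2, 0 and 1, chr11:7353322-7361194 with 0, 1 and 1, and chr11:7380186-7381999 with 0, 1 and 0. As a share of all junction reads SLC9A2 had 0.0692% in buffalo muscle and 0.0636% in cattle muscle. In both species library 3 held most of these reads, 6 of 11 and 27 of 41, and both shares would be lower without it. Of the 41 cattle reads, 95.1% were on the short junction. SLC2A12, the glucose transporter GLUT12, came next with 2, 1 and 7 reads, of which 1, 1 and 6 were on chr9:73190764-73192104, the only solute carrier junction found in all 3 buffalo libraries. SLC2A12 was not a host in the cattle table. Its share was 0.0629% of the buffalo muscle junction reads, but library 3 held 7 of its 10 reads, and the share would be lower without it. A count of 0 among the 64482 cattle muscle junction reads allows a share of up to 0.00465%, for counting error only. SLC35A1 had 4, 0 and 1 reads, and SLC25A30, a mitochondrial carrier, 3, 0 and 1 on its only junction. SLC12A2 had 1, 0 and 2 reads, all on the junction that led in cattle muscle. SLC35B3, the Golgi transporter of the sulphate donor PAPS, had 0, 2 and 1 reads on chr23:47016589-47024872. In cattle muscle SLC35B3 had no read, and in cattle adipose tissue it had 6, all in adipose 1.

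Of the hosts with a read in buffalo muscle, 25 also had a read in cattle muscle, which is 64.1% of the buffalo hosts and 39.7% of the cattle hosts, while 14 had a read in buffalo muscle only and 38 in cattle muscle only. Among the 22 hosts with at least 10 reads in cattle muscle, 8 had no read in buffalo muscle. The same counts over all hosts are not given here, and buffalo muscle had fewer junction reads. Nothing particular to solute carriers is therefore read from these counts. The largest of the 8 was SLC15A4, with 75 reads or 0.116% of the junction reads in cattle muscle. A count of 0 among 15890 buffalo muscle junction reads allows up to 0.0189%, for counting error only. The 2 junctions of SLC15A4 are both listed in the buffalo table. SLC4A7 and SLC25A26 had 35 reads each or 0.0543% in cattle muscle and none in buffalo muscle. SLC8A3 with 17 reads or 0.0264%, SLC4A4 with 14 or 0.0217%, SLC25A13 and SLC25A14 with 13 or 0.0202% each, and SLC41A2 with 12 or 0.0186%, were near that limit. SLC30A9 had 73 reads or 0.113% in cattle muscle and 1 read or 0.00629% in buffalo muscle.

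Identical junction coordinates in both muscles were found for 16 solute carrier junctions, which is 34.04% of the 47 of buffalo and 10.8% of the 148 of cattle. Over all junctions 2231 were shared, which is 47.1% of those in buffalo muscle and 18.6% of those in cattle muscle. The shared junctions with the most reads in both muscles together were those of SLC9A2 and SLC12A2, with 41 each, then chr3:42522336-42531072 of SLC30A7 with 28, the junction of SLC35A1 with 25, that of SLC20A2 with 18 and chr12:15600523-15605930 of SLC25A30 with 15. They were followed by chr11:22485715-22530506 of SLC8A1 with 12, chr10:73439158-73449903 of SLC38A6 and chr6:62571166-62575729 of SLC30A9 with 11 each, and chr5:112585115-112588574 of SLC25A17 with 6. In buffalo muscle each of these 10 had 1 to 5 reads. The SLC35A1 junction had 0.0258 ± 0.0314 RPM in buffalo muscle and 0.170 ± 0.0654 RPM in cattle muscle (SD, n = 3). The SLC9A2 junction had 0.0106 ± 0.00923 RPM and 0.350 ± 0.303 RPM.

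Host mRNA levels were analysed here in buffalo muscle only, as FPKM per transcript, and 58 of the 60 buffalo hosts had a transcript there. A host with several transcripts was given the level of its highest one. The depth behind an FPKM value is unknown. As mean log2(FPKM + 1) of 3 libraries, the highest mRNA among all solute carrier hosts was that of SLC25A12, the aspartate/glutamate carrier aralar, with 7.01 ± 0.15 (SD, n = 3). SLC25A12 was a circRNA host in the cattle table only. It was followed by SLC25A30 with 6.97 ± 0.19, the nucleoside transporter SLC29A1 with 6.35 ± 0.12, the lactate transporter SLC16A1 with 6.08 ± 0.13, the amino acid transporter SLC38A2 with 6.08 ± 0.26, the choline transporter-like SLC44A2 with 5.96 ± 0.13, SLC4A4 with 5.21 ± 0.88 and the amino acid transporter SLC43A2 with 5.19 ± 0.84. The first and second, and those from SLC16A1 to SLC44A2, lay within their SDs of each other. The hosts with the highest mRNA had few junction reads. SLC25A30 had 4 junction reads, SLC44A2 had 2, SLC29A1 and SLC16A1 had 1 each, and SLC38A2, SLC4A4 and SLC43A2 had none.

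SLC9A2, with the most junction reads, had 33.9, 21.6 and 23.8 FPKM, a mean of 4.75 ± 0.33 on the log2 scale. SLC2A12 had 11.6, 5.39 and 8.09 FPKM, a mean of 3.17 ± 0.49. Of the other hosts called in cattle, SLC8A3 mRNA stood at 5.05 ± 0.38 in buffalo muscle, SLC12A2 at 4.46 ± 0.37, SLC20A2 at 3.95 ± 0.38, SLC25A13 at 2.50 ± 0.21 and SLC38A6 at 1.26 ± 0.04. The median of all 19917 transcripts was 1.98, and 35 of the 58 hosts lay above it. The median was 2.48 over the 38 hosts with a junction read and a transcript, and 1.86 over the 20 hosts with a transcript and no junction read. Across the 58 hosts Spearman's rho between mRNA level and junction RPM was 0.33. It was 0.20 without buffalo muscle 3, and 0.49 over the 19 hosts with at least 2 junction reads. The hosts share their libraries and are not independent replicates, and most had 0 to 2 junction reads, so that this weak relation is given as a description only.

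**Figure D5:**
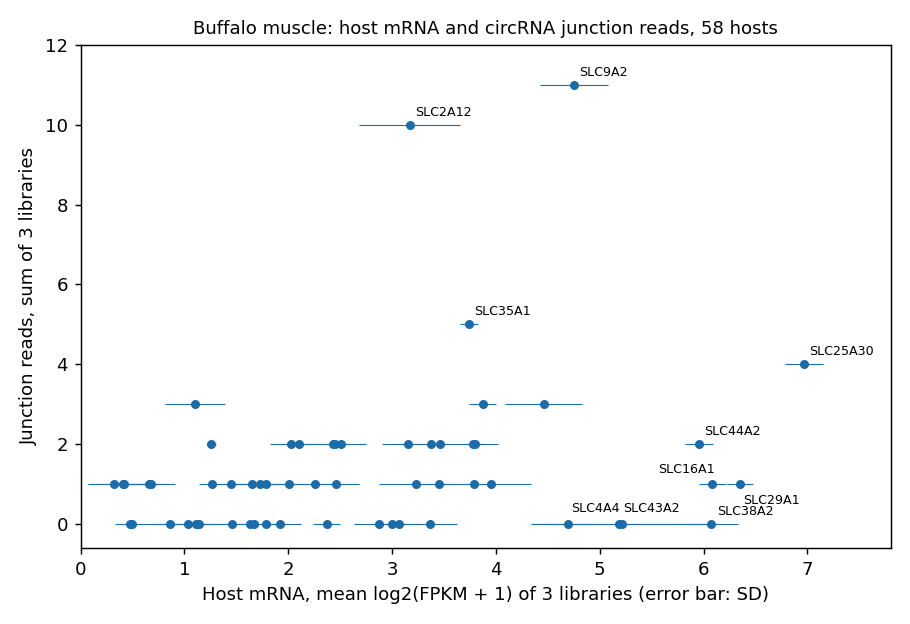
Host mRNA level (x axis, mean log2(FPKM + 1) of 3 buffalo muscle libraries, with SD) and junction reads summed over the same libraries (y axis) for the 58 buffalo hosts with a transcript. SLC9A2 with 11 reads and SLC2A12 with 10 stand above the rest, while SLC38A2 with a level of 6.08 has no junction read.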

How the data were processed

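The 9 libraries (buffalo muscle, 3; cattle muscle, 3; cattle adipose, 3) were grouped by the sample labels. The authors prepared them with the TruSeq RNA LT v2 kit, trimmed reads with Trim Galore, aligned both species to cattle UMD3.1 with STAR and quantified transcripts with Cufflinks 2.2.1 and Cuffdiff. How circRNAs were called, and whether linear RNA was digested, is not given in the sources used here. The deposited circRNA tables give RPM per junction and the deposited mRNA table gives FPKM per transcript. A further 9 columns, of buffalo adipose tissue, match no sample of this series and were not analysed here, nor were lncRNAs. Every RPM value above 0 (100%) was a whole number of reads within 0.01 reads. Junction coordinates are those of the tables; no sequence is printed, and 1 solute carrier symbol is not reported here.

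The cattle tissues were compared with limma 3.58.1 (R 4.3.3, eBayes with trend) on log2(RPM + 0.1), since most junctions lie far below 1 RPM, over features with at least 2 reads in at least 3 libraries. The fit ran on whole tables and was tested on simulated reads in which 200 features were changed 4-fold. It recovered 18.3% of the changed junctions and 28.8% of the changed hosts, so that many changes of this size were missed. Alternatives were other pseudocounts (1 and 0.02), no filter or at least 5 reads, a replicate block, centring, edgeR 4.0.16, DESeq2 1.42.0 and leaving out each library (over the features of the full fit). Genes were named by rule: the 6 highest junctions per group, every call, the 5 hosts with most junctions, the 10 leading shared junctions and the 8 highest mRNAs. SLC23A2, SLC25A14 and hosts given as examples of no difference or of presence in a single species were chosen after their values were seen. The members, groups and lists were chosen with earlier results of these data known. Muscle and adipose numbers were not taken as paired.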

Additional observations from a re-analysis of the deposited data

Results flagged for a closer look

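Junction reads were found for rows that a symbol of SLC and a digit does not take in. SLCO5A1, of the organic anion transporter family, had 22 reads on 2 junctions in buffalo muscle, 95 reads on 5 junctions in cattle muscle and 4 reads on 2 junctions in cattle adipose tissue. These cattle muscle reads outnumber those of any host described above. Rows labelled SNORA18,SLC38A9, a pair of host symbols of which the first is a small nucleolar RNA gene, had 10 reads on 2 junctions in cattle muscle and 9 reads on 2 junctions in cattle adipose tissue, beside 13 and 8 reads of SLC38A9 alone. No test was made of either.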

How the results depend on the processing

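By junction, the 2 solute carrier calls became 0 with a pseudocount of 1, 1 without the filter and 1 with at least 5 reads. They became 4 with a pseudocount of 0.02, with edgeR on deposited library sizes or TMM factors, with DESeq2 and with the replicate block. By host, the 6 calls became 2 with a pseudocount of 1, 3 with 0.02, 2 without the filter, 3 with at least 5 reads, 4 with edgeR on deposited library sizes, 7 with TMM factors and 5 with DESeq2, and were 6 with the replicate block. Leaving out 1 library gave 0 to 2 junction calls and 1 to 3 host calls. Over all junctions the 92 calls ranged from 22 to 83 without 1 library, and were 160 with a pseudocount of 0.02, 49 without the filter, 214 with the block, 158 centred and 163 with TMM factors. Over all hosts the 140 calls ranged from 46 to 135 without 1 library. The cause of these changes was not tested. For cattle, muscle was also correlated with adipose tissue after the mean of each feature within its tissue was taken off. Libraries with the same number then correlated at 0.119, 0.0976 and 0.0292 by junction and 0.0761, 0.0757 and 0.0103 by host. Each library was best with its own number, which is a hint from the data and not the design. These are correlations of what is left after the means, not of whole profiles.

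The SLC15A4 junction ending at 49351083 turned from 0.11 to -0.019 centred, and ranged from -0.46 (without cattle muscle 2) to 0.48 (without cattle adipose 2) without 1 library; it was -0.35 without cattle adipose 3. Of 359 values of named junctions and hosts under alternatives, 290 kept their direction and side of the threshold, 53 fell short of it, 13 passed it and 3 reversed. Over the reads of rows with any host symbol, the solute carrier share in cattle adipose tissue was 1.17%. Over all rows but the leading junction it was 1.04%. Junctions with at least 2 reads numbered 22 for buffalo, 74 for cattle muscle and 82 for cattle adipose, and those in every library 1, 21 and 15. Buffalo hosts with a single junction of at least 2 reads numbered 18, and hosts with a single junction found in every library 1, 18 and 12. Shared junctions with at least 2 reads in each muscle numbered 8, and 12 to 15 were shared without 1 library. The relation to host mRNA was 0.28 as Pearson's r with a pseudocount of 0.1, 0.49 over 19 hosts with at least 2 reads, and 0.20 to 0.31 without 1 library. With 3 libraries per group and few reads per junction, a difference that was not called may be one this depth could not show.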
